A study of Mus musculus with 2 samples.

Results

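A T cell population that combined NK and memory genes was examined in popliteal lymph nodes (PLNs), the nodes that drain the ankle and hindpaw, of TNF transgenic (TNF-Tg) mice. These mice overexpress tumour necrosis factor and develop inflammatory-erosive arthritis. The population held 243 of the 16404 cells kept, 227 of 8183 in the Advanced library and 16 of 8221 in the Early library. A cell was a member when its unique molecular identifiers (UMIs, counted transcript molecules) met a fixed rule. The rule asked for at least 200 genes, at least 3 UMIs of the CD3 genes Cd3d, Cd3e and Cd3g together, a share of the B cell genes Cd79a, Cd79b and Ms4a1 below 0.0015 of the cell's UMIs, no Foxp3 UMI, at most 2 UMIs of Trdc and Cxcr6 together and at most 1 UMI of Rag1 and Dntt together. Cells that met these conditions are called gated T cells, and members were the gated T cells with at least 4 UMIs of Ccl5, Xcl1, Klre1, Klrc1 and Klrc2 together. The members were thus selected on the measured UMIs of these 5 rule genes, and the levels of these genes are given below as a description only.

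The Advanced group was male TNF-Tg mice older than 8 months, and the Early group was male TNF-Tg mice of 5 to 6 months, both on a C57BL/6 background. Each group was 1 library that pooled 6 PLNs of 3 mice, so no difference has a replicate check, no test was possible, and stage, mouse age and library cannot be told apart. Both groups carried the transgene, both had received Evan's blue dye in the hindpaw so that the nodes could be found, and wild-type nodes were not analysed here. Live nucleated cells were sorted without selecting a lineage. Levels are the UMIs of a gene summed over a group of cells, per 1e+06 UMIs of those cells (CPM), ratios carry 95% intervals, and all intervals cover counting error only.

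Circulating CD8 T cells that have met antigen, or that have responded to cytokines without it, are known to take up features of natural killer (NK) cells. In mice such memory or memory-like cells typically express the transcription factor Eomes, the surface protein Ly6C, the interleukin-2 and interleukin-15 receptor chain CD122 (Il2rb) and lectin-like receptors of the Ly49 (Klra) and NKG2 (Klrc, Klrk1) families, and they can release the chemokines CCL5 and XCL1 quickly. Central memory cells keep CCR7, which guides a cell into a lymph node. Naive CD8 cells are marked by Lef1, Ccr7 and Igfbp4 and have little CD44.

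The promoters of Xcl1, a gene of the rule, and of S100a6, Klrk1 and Gzmm, which were higher in members, are shown. They were chosen because they held the core letters TGTGGT bound by the Runx factors, a family needed in mouse CD8 T cells. The sequences are the 250 bases before the RefSeq start of each gene on GRCm38.p6, written 5′ to 3′ on the strand of the gene, with TGTGGT or its reverse complement in capitals. They cover chr1:164935523-164935772 (minus strand, Xcl1), chr3:90612644-90612893 (plus strand, S100a6), chr6:129623865-129624114 (minus strand, Klrk1) and chr10:79688770-79689019 (plus strand, Gzmm).
Xcl1: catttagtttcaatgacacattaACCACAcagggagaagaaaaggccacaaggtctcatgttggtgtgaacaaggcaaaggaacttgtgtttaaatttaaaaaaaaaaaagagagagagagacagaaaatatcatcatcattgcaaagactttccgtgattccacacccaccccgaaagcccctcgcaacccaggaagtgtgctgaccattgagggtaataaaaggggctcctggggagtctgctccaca
S100a6: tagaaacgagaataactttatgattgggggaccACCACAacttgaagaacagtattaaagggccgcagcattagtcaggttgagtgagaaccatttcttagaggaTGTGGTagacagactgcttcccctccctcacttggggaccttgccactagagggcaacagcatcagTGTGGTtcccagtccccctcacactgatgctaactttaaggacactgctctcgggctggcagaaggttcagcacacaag
Klrk1: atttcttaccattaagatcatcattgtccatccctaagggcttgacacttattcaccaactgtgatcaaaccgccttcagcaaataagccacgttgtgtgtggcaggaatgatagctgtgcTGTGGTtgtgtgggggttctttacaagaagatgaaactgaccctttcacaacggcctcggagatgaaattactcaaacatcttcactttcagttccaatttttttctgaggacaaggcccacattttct
Gzmm: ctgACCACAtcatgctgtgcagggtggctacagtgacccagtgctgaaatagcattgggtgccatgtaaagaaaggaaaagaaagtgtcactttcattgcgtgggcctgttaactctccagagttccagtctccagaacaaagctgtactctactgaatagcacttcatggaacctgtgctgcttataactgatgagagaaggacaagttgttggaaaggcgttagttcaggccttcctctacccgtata
The letters were found on either strand in 6 of the 12 genes named as higher below (Gzma, Gzmm, Klra1, Klrk1, Lyz2 and S100a6). They were found in 1 of 9 genes named as lower and in 15.9% of all 27025 genes. Among the 6, Gzma had 91.8% of its member UMIs in 1 cell, and Lyz2 had 98.3% in 11 cells described below. All 4 rule genes with a promoter entry (Xcl1, Klre1, Klrc1 and Klrc2) held the letters too, but these genes chose the members. Klre1, Klrc1 and Klrc2 also lie together in the NK gene complex. The T-box core AGGTGT, the letters read by Eomes and T-bet, was found in 1 of the same 12 higher genes, 2 of the 9 lower genes and 13.6% of all genes. Gzmm has a second RefSeq start whose 250 bases held neither. A match is a description of letters, not a bound site.

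The rule genes were dominated by Ccl5, a chemokine that attracts T cells and monocytes. Members held a median of 87 rule gene UMIs in the Advanced library (range 4 to 516), against 41.5 in the Early library (4 to 165). Ccl5 stood at 5634 CPM in Advanced members and 2423 CPM in Early members, and it reached the minimum of 4 alone in 219 of 227 and 12 of 16 cells. As a measure of background, 13.3% of Advanced B cells held a Ccl5 UMI (1578 UMIs in 694 cells, 33.1 CPM), against 1.10% of Early B cells (335 UMIs in 82 cells, 5.73 CPM). Whether these UMIs came from free RNA, doublets or the B cells was not tested. Those B cells had medians of 7455 and 6600 UMIs, against 13973 UMIs in Advanced members and 12982.5 in Early members. The NK receptor genes of the rule were less widely detected. Klre1 (NKG2I), Klrc1 (NKG2A) and Klrc2 (NKG2C) stood at 112, 74.8 and 74.8 CPM in Advanced members, and 47 of these 227 cells had UMIs of all 5 rule genes while 64 had none beyond Ccl5. Reads of Klrc1 and Klrc2, and of the Klra genes below, may be split or shared between near-identical copies, so values of single family members are uncertain.

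**Figure D1:**
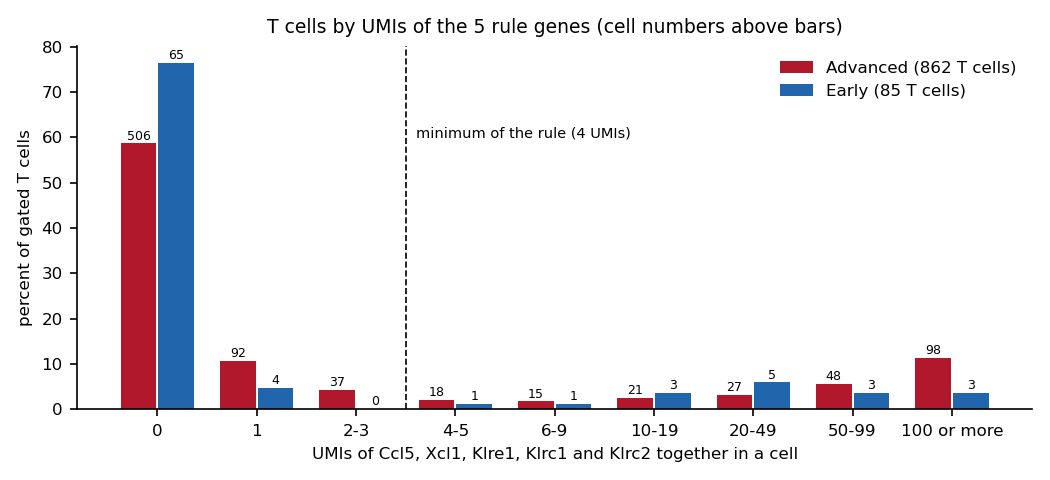
Percent of gated T cells (vertical axis) by the number of UMIs of the 5 rule genes in a cell (horizontal axis), with cell numbers above the bars, for 862 Advanced and 85 Early cells. Most gated cells lay at 0 (506 Advanced and 65 Early), few lay just below the minimum (37 and 0 at 2 to 3 UMIs), and 98 Advanced and 3 Early cells reached 100 or more.

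Cells on both sides of the minimum were compared as a description. In the Advanced library, 18 members had 4 to 5 rule gene UMIs and 37 gated cells had 2 to 3. Ly6c2 stood at 460 CPM in those inside and 390 CPM in those outside, and Il2rb at 75.5 and 79.2 CPM. For both genes these cells lay between all members and the CD8 comparator described next. Other genes stood further apart, with S100a6 at 662 CPM inside and 183 CPM outside, S100a4 at 930 and 477 CPM, Tyrobp at 234 and 55.0 CPM, Eomes at 43.8 and 22.6 CPM, Nkg7 at 241 and 398 CPM and Klrk1 at 2.43 and 35.6 CPM. Klrk1 rested on 1 UMI inside and 22 UMIs in 3 cells outside. Of the 96 Tyrobp UMIs inside, single cells held 35, 25, 23 and 11. Those cells are among the 11 members with Tyrobp or Lyz2 UMIs that are left out in a comparison below. S100a4 was found in 7 of the 18 cells inside, and over all members it stood at 228 CPM. The part of the Tyrobp cells in the other differences was not tested.

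Members made up 2.77% of all Advanced cells (exact binomial interval 2.43% to 3.15%) and 0.195% of all Early cells (0.111% to 0.316%), a ratio of 14.3 (8.59 to 25.4). The whole gated T cell class differed by a similar factor, at 10.5% of Advanced and 1.03% of Early cells, a ratio of 10.2 (8.15 to 12.9). Within gated T cells, members were 26.3% in the Advanced library and 18.8% in the Early library, a ratio of 1.40 (0.843 to 2.49) whose interval includes 1. Per CD8 comparator cell there were 0.712 members in the Advanced library and 0.696 in the Early library, a ratio of 1.02 (0.616 to 1.82). Among all cells that passed the CD3 and B cell gene limits, before those on Foxp3, Trdc and Cxcr6, and Rag1 and Dntt, members were 227 of 1239 (18.3%) in the Advanced library and 16 of 185 (8.65%) in the Early library, a ratio of 2.12 (1.28 to 3.77) whose interval excludes 1.

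Members were then set against naive-like CD8 T cells of the same library. This CD8 comparator was the gated T cells with at most 1 rule gene UMI, at least 2 Cd8b1 UMIs and no Cd4 UMI, 319 Advanced and 23 Early cells. A gene was past 2-fold when it reached 10 CPM in 1 of the 2 groups and both ends of its ratio's interval were beyond 2-fold on the same side. In the Advanced library 193 of 6878 genes (2.81%) were past 2-fold higher in members, 188 of them outside the rule, and 28 (0.407%) were past 2-fold lower. CD8 memory genes and NK receptor genes were among the higher ones. Of 20 memory CD8 genes in the files, 13 were higher and 1 was lower, and 13 of the 20 reached 10 CPM in the comparator, of which 7 were higher and 1 was lower. Of 26 NK receptor genes outside the rule, 9 were higher and none lower. Of these 26, 4 reached 10 CPM in the comparator (1 higher, Cd160), and 8 reached it in members alone, all 8 of them higher. A gene rare in the comparator is measured only if it is high in members, so the count of 9 describes these genes and is partly set by the minimum.

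Ly6c2, which encodes the Ly6C surface protein of memory CD8 cells, stood at 1006 CPM in members and 196 CPM in CD8 comparator cells, a ratio of 5.14 (4.76 to 5.56), with a UMI in 213 of 227 and 133 of 319 cells. Its near copy Ly6c1 makes the split of reads between them uncertain. Il2rb, the CD122 chain, stood at 220 CPM in members and 39.6 CPM in comparator cells, a ratio of 5.56 (4.68 to 6.64). Eomes, which drives CD122 expression in mouse memory CD8 cells, stood at 78.9 and 16.0 CPM (ratio 4.92, 3.74 to 6.56). All 3 genes were thus several-fold higher in members and were also detected in some comparator cells. In B cells of the same library a UMI was found in 5.75% of cells for Ly6c2, 2.19% for Il2rb and 0.288% for Eomes, below the member and comparator shares.

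Other memory genes moved the same way. Cxcr3, the receptor for interferon-induced chemokines of inflamed tissue, stood at 84.4 CPM in members and 11.01 CPM in comparator cells, a ratio of 7.66 (5.57 to 10.8). Cd44, the classical marker of antigen-experienced mouse T cells, stood at 64.7 and 8.76 CPM (ratio 7.38, 5.16 to 10.8). Tbx21, which encodes the effector factor T-bet, was low in both at 17.5 and 1.25 CPM (ratio 14.0, 5.70 to 44.6). The interleukin-18 receptor chain Il18rap was 20.5-fold higher (9.66 to 51.9). The only gene of the memory list past 2-fold lower was Dapl1, which is also counted in the naive list below. It stood at 352 CPM in members and 816 CPM in comparator cells (ratio 0.431, 0.404 to 0.460).

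Members had less of several naive genes. Ccr7 stood at 112 CPM in members and 242 CPM in comparator cells (ratio 0.464, 0.412 to 0.521), and its interval reached past 0.5. Lef1, a factor of naive and stem-like T cells, stood at 147 and 325 CPM (ratio 0.451, 0.407 to 0.499). Igfbp4, a marker of recent and naive T cells, stood at 18.1 and 157 CPM (ratio 0.115, 0.0877 to 0.148). Of 17 measured naive genes, 3 were past 2-fold lower (Igfbp4, Lef1 and Dapl1) and none higher, with a median log2 ratio of -0.32, against 0.06 over all genes, and all 17 reached 10 CPM in the comparator. Tcf7, which encodes a factor related to Lef1, stood at 218 CPM in members and 243 CPM in comparator cells (ratio 0.898, 0.817 to 0.987).

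In single cells Eomes and Ly6c2 were both detected in 118 of 227 members (52.0%, 45.3% to 58.6%) and in 31 of 319 comparator cells (9.72%, 6.70% to 13.5%). Median depth was 13973 UMIs in members and 12140 in comparator cells, so members were read somewhat more deeply. Neither Eomes nor Ly6c2 was detected in 5 members and 178 comparator cells.

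**Figure D2:**
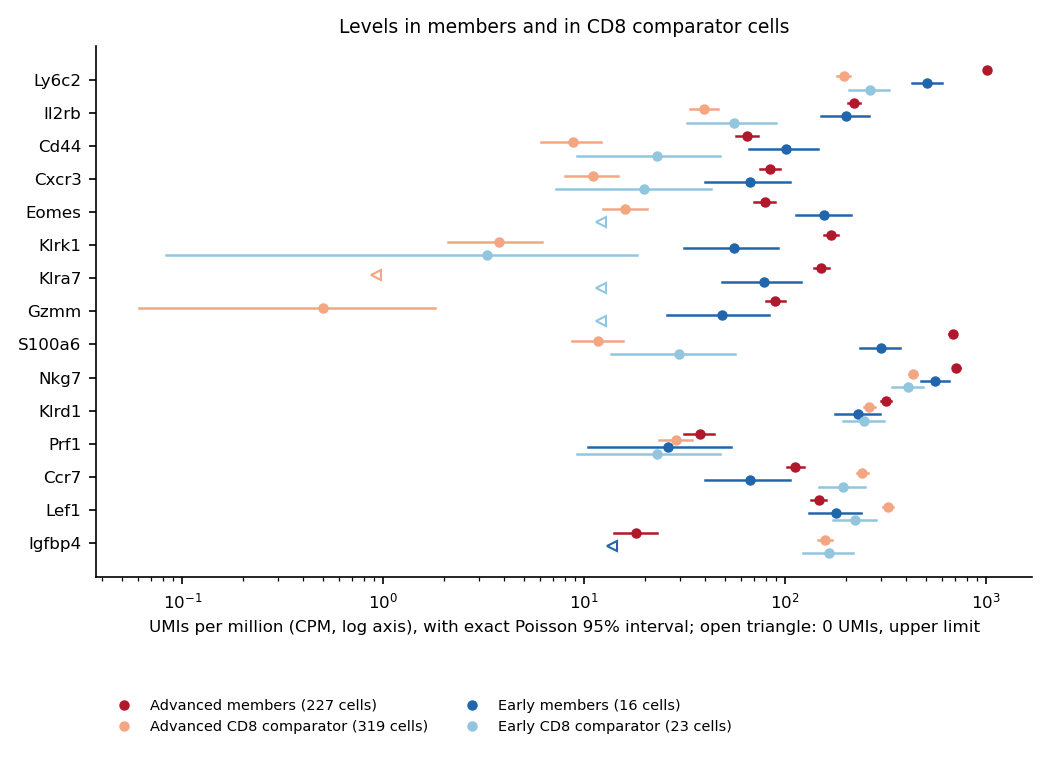
Levels of 15 genes outside the rule in CPM (horizontal log axis) with exact Poisson 95% intervals, for Advanced members, Advanced CD8 comparator cells, Early members and Early CD8 comparator cells, with open triangles at the upper limit where a group had 0 UMIs. Ly6c2, Il2rb, Cd44, Cxcr3, Eomes, Klrk1, Klra7, Gzmm and S100a6 lay higher in members in both libraries, and Ccr7 and Igfbp4 lay lower in members.

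Receptors encoded in the NK gene complex gave wide ratios. Klra7, an inhibitory Ly49 receptor for MHC class I (ENSMUSG00000067599, chr6:130218605-130233322, minus strand, mm10), had 553 UMIs in 89 members and none in the comparator, at least 202-fold higher when the comparator is set at a floor of 3 UMIs over the group. Klra1 stood at 88.8 and 0.2503 CPM (ratio 355, 63.2 to 14048) and Klra6 at 53.4 and 0.2503 CPM (213, 37.9 to 8472). Klrk1, which encodes the activating receptor NKG2D (ENSMUSG00000030149, chr6:129610323-129623864, minus strand), stood at 168 CPM in members and 3.75 CPM in comparator cells, a ratio of 44.9 (27.0 to 80.7), in 114 and 13 cells. Klrb1c, the gene of the NK1.1 antigen, was rarer at 19.5 and 0.2503 CPM (ratio 77.7, 13.5 to 3112) and was found in 35 members. These receptors were rare in comparator cells, and each was found in only some members. In Advanced B cells a Klrk1 UMI was found in 0.827% of cells.

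The complex as a whole, taken as chr6:128609227-131247362, holds 51 listed genes. Past 2-fold higher were 11, made up of the 3 rule genes there and 8 others (Klra1, Klra3, Klra6, Klra7, Klra9, Klrb1c, Klrk1 and BC035044), and none was lower. Klrd1 (CD94), the partner chain of the Klrc receptors, was abundant in both groups at 319 CPM in members and 262 CPM in comparator cells (ratio 1.22, 1.12 to 1.32). Cd96 and Cd226, which bind related ligands of the nectin family, were below 1 at ratios of 0.681 (0.555 to 0.834) and 0.614 (0.508 to 0.739).

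Ly49 genes were distributed unevenly among members. At least 1 of Klra1, Klra3, Klra6, Klra7 and Klra9 was detected in 134 of 227 Advanced members (59.0%, 52.3% to 65.5%) and 6 of 319 comparator cells (1.88%, 0.693% to 4.05%). Members with exactly 1, 2, 3, 4 and 5 of these genes numbered 44, 48, 31, 10 and 1. Klra6 and Klra7 were the most frequent pair, found together in 51 cells. In the Early library 6 of 16 members and 1 of 23 comparator cells had at least 1.

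**Figure D3:**
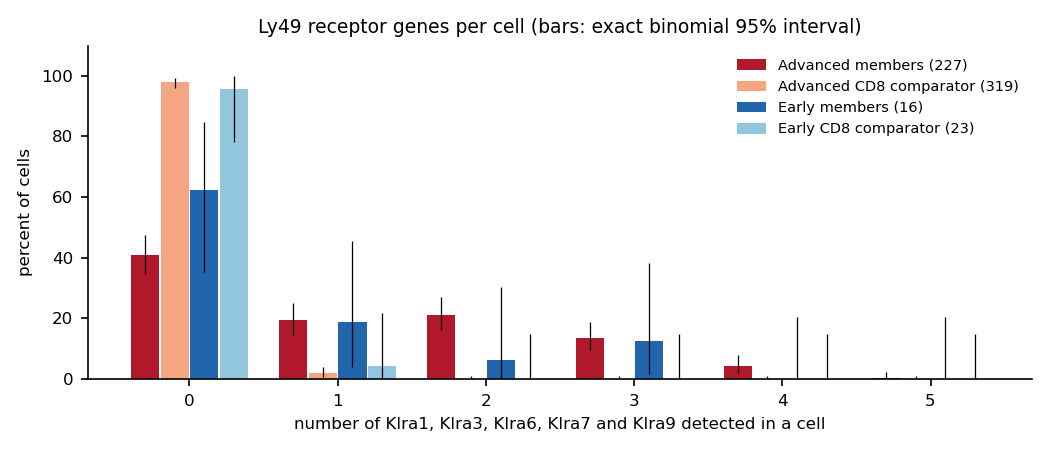
Percent of cells (vertical axis) by the number of 5 Ly49 genes detected in a cell (horizontal axis) for members and CD8 comparator cells of each library, with exact binomial 95% intervals. Of 227 Advanced members 93 had none and 48 had exactly 2, while 313 of 319 Advanced comparator cells had none.

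Cytotoxic genes split into those shared with other CD8 cells and those rare or absent in comparator cells, such as Gzmm and Fasl. Gzmm, which encodes granzyme M (ENSMUSG00000054206, chr10:79689020-79695261, plus strand), stood at 89.3 CPM in members and 0.501 CPM in comparator cells, a ratio of 178 (48.99 to 1479), in 86 and 2 cells. Nkg7, a granule membrane protein and the marker of the population that the rule did not use, was abundant in both at 710 and 432 CPM (ratio 1.64, 1.55 to 1.75). Prf1 (perforin) stood at 37.5 and 28.5 CPM (ratio 1.32, 1.02 to 1.70) and Ctsw (cathepsin W) at 218 and 140 CPM (ratio 1.56, 1.40 to 1.74). None of these 3 was past 2-fold. The granzymes of armed effector cells were scarce. Gzmb stood at 4.66 CPM in members and 1.00 CPM in comparator cells, Gzmk had 28 UMIs in 9 members and none in comparator cells, and Gzma had 170 UMIs in members, 91.8% of them in 1 cell. Of 14 measured granule genes 3 were higher and none lower. Of the 14, 9 reached 10 CPM in the comparator and none of these was higher. The other 5 reached it in members alone and included all 3, so this count is partly set by the minimum. Fasl, the ligand that triggers death through Fas and a gene of the granule list, had 70 UMIs in 56 members and none in comparator cells (at least 25.5-fold higher). Without the Tyrobp or Lyz2 cells described below, the higher granule genes were Gzmm and Fasl. Among chemokine and cytokine genes, Ccl4 was 5.43-fold higher (3.57 to 8.55) and Ifng 4.71-fold higher (2.33 to 10.5).

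S100a6, a small calcium-binding protein gene (chr3:90612882-90624181, plus strand), stood at 682 CPM in members and 11.8 CPM in comparator cells, a ratio of 57.9 (43.4 to 79.1), in 169 and 27 cells. In B cells it stood at 60.9 CPM with a UMI in 16.9% of cells. Of 16 measured S100 and memory-linked genes 7 were higher, among them Ahnak (4.83, 4.18 to 5.62) and Anxa2 (5.52, 4.42 to 6.94). Of the 16, 14 reached 10 CPM in the comparator, and 5 of these were higher. S100a4 stood at 228 and 46.6 CPM, but 71.5% of the comparator's S100a4 UMIs were in 1 cell. Ctla2a, a cysteine protease inhibitor gene named by the Early comparison below, was 18.3-fold higher in Advanced members (14.9 to 22.7). Of 22 homing genes 6 were higher and 2 lower. Of the 22, 16 reached 10 CPM in the comparator, and 2 of these were higher and 2 lower. Ccr9, which guides cells to the small intestine, stood at 2.74 and 52.1 CPM (ratio 0.0526, 0.0249 to 0.0987), and Itgae, the CD103 integrin that binds E-cadherin, at 6.03 and 34.0 CPM (ratio 0.177, 0.107 to 0.279). The integrin chains Itgb7 and Itga4, which pair in a gut homing receptor, had ratios of 0.693 (0.608 to 0.789) and 0.798 (0.682 to 0.933), not past 2-fold. The 6 higher genes included Itga1 (60 UMIs in 32 members, none in comparator cells) and Ccr2 (22.1, 9.85 to 61.3), and S1pr1, the receptor for leaving the node, stood at 199 and 314 CPM (ratio 0.633, 0.577 to 0.694).

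Markers of other cells moved with these differences in a few cells. Of the 227 Advanced members, 11 held at least 3 UMIs of Tyrobp, an adaptor of NK and myeloid cells, or of Lyz2, the lysozyme of myeloid cells. These 11 held 91.4% of the members' Tyrobp and 98.3% of their Lyz2 UMIs. A Tyrobp UMI was found in 18.5% of Advanced members and in 27.0% of Advanced B cells (106 CPM). Lyz2 was found in 12.3% of those members and 10.8% of those B cells (61.1 CPM). The source of the B cell UMIs was not tested. Over the whole myeloid list the sum was 739 CPM in members and 117 CPM in comparator cells, and 126 and 118 CPM without such cells. Per member cell the myeloid sum ran between 0 and 27141 CPM with a median of 102, against 0 to 1496 CPM with a median of 90.9 in comparator cells, and Fcgr1 was at 0 in both. The NK defining list summed to 459 and 75.9 CPM, and to 238 and 75.1 CPM without those cells. Lyz2 is in the myeloid list and Tyrobp in the NK defining list. These genes chose the cells left out, so part of the fall of both sums was fixed in advance. The NK receptor Ncr1 had 13 UMIs in 3 members.

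Without those cells, 110 genes were past 2-fold higher, 106 of them shared with the 193, and 28 were lower, 24 of them shared. Ly6c2, Eomes, Il2rb, Klrk1 and Gzmm then had ratios of 5.50, 5.19, 5.93, 46.5 and 196, close to or above those with all members. The NK receptor list then had 9 higher genes and the memory list 12, while the B cell list had none, against 2 of 9 (Cd74 and H2-Ab1) with all members. Lyz2 (332 and 8.01 CPM in members and comparator cells, a ratio of 41.5) had a ratio of 0.758 without those cells, and Tyrobp (11.98 with all cells) had 1.25. Both genes chose the cells left out, so their fall was fixed by that choice. Gzma stood at 4.27 and 0.251 CPM, S100a4 had a ratio of 2.37 (1.98 to 2.84) that was no longer past 2-fold, and Itga4, an integrin chain for inflamed vessels, had 0.471 against 0.798 with all cells. The part that such cells play in other genes was not tested.

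**Figure D4:**
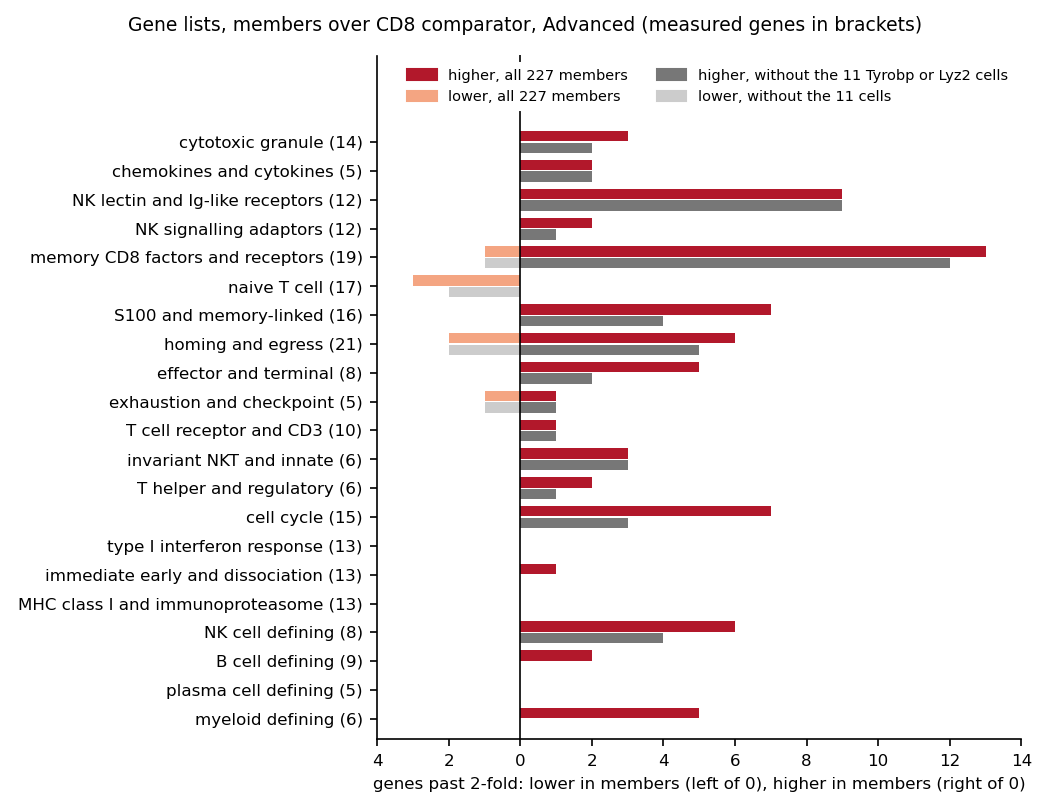
Number of genes past 2-fold (horizontal axis, lower in members to the left of 0 and higher to the right) for each gene list, Advanced members over CD8 comparator cells, for all 227 members and without the 11 cells with Tyrobp or Lyz2 UMIs. The NK receptor count was 9 in both, the memory count 13 and 12, and the myeloid count 5 and 0. Lyz2, a gene of the myeloid list, chose the cells left out together with Tyrobp, so part of the myeloid fall was fixed in advance.

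The remaining lists were mixed. Type I interferon response genes and MHC class I genes had none past 2-fold among 13 measured each. Of 15 cell cycle genes 7 were higher and none lower, and 3 were higher without the 11 cells above, while cells with at least 3 UMIs of Mki67 and Top2a together were 7 of 227 members and 4 of 319 comparator cells. Those 7 held 95.9% of the members' UMIs of the 2 genes, and 4 of them were among the 11 cells with Tyrobp or Lyz2. Of 12 effector and terminal genes 5 were higher (Gzma, Cx3cr1, Fcgr2b, Zeb2 and Tbx21) and none lower, all 5 below 10 CPM in the comparator, and without the 11 cells Fcgr2b and Tbx21 were higher. Of 12 exhaustion and checkpoint genes 1 was higher, Cd160 (3.91, 2.99 to 5.17), and 1 lower, Ctla4, an inhibitory receptor, at 12.1 CPM in members and 40.6 CPM in comparator cells (ratio 0.297, 0.208 to 0.417), with or without the 11 cells. Klrg1 had 9 UMIs in 1 member, Tigit 3 and Pdcd1 3 UMIs over all Advanced members.

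The co-receptor genes placed most members in the CD8 lineage. Cd8a or Cd8b1 UMIs without Cd4 were found in 199 of 227 Advanced members (87.7%), Cd4 alone in 4, both in 7 and neither in 17 (7.49%, 4.42% to 11.7%). In the Early library the numbers were 11, 2, 1 and 2. Since Cd8b1 and Cd4 chose the comparator, Cd8a was compared in members under the same limits. In those 167 members Cd8a stood at 233 CPM, against 339 CPM in the comparator, a ratio of 0.687 (0.625 to 0.756).

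The 17 Advanced members without co-receptor UMIs had T cell receptor genes at levels no lower than the 199 CD8 members. Trac stood at 509 CPM in the 17 and 347 CPM in the 199, and Trbc2 at 1410 and 1078 CPM. Klrb1c stood at 123 and 15.1 CPM (ratio 8.16, 4.69 to 13.8) and Klrk1 at 448 and 167 CPM (2.68, 2.09 to 3.40), so these NK receptor genes were higher in the cells without co-receptor UMIs. NK cell genes moved with them. Of 12 NK defining genes 9 were detected in the 17, with Gzma, Klra8 and Klra4 at 0, and 12 in the 199, and per cell their sum ran between 90.3 and 5041 CPM in the 17 (median 734) and between 0 and 10620 CPM in the 199 (median 170). Ncr1 had 8 UMIs in 2 of the 17 cells and 5 UMIs in 1 of the 199 (ratio 28.5, 8.22 to 111), Fcer1g stood at 381 and 97.4 CPM (3.91, 2.96 to 5.09) and Tyrobp at 139.9 and 96.8 CPM (1.45, 0.921 to 2.18). The part of NK cell RNA in the difference was not tested. Their median depth was lower, at 10704 against 14266 UMIs. Zbtb16, the factor of invariant NKT cells, had no UMI in the 17 and 3 UMIs in all members, and Trav11, the variable gene of their receptor, had none. The 4 cells with Cd4 alone had Gzmk at 170 CPM and Eomes at 156 CPM, and no UMI of Ly6c2, Klra1 or Klra7.

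Receptor variable genes were spread widely. Trbv UMIs were found in 92 Advanced members over 17 of 35 listed genes. The most frequent, Trbv12-2, was in 15 of those cells (16.3%, 9.42% to 25.5%), against 20 of 130 comparator cells (15.4%, 9.66% to 22.8%). The libraries read the 3′ end of transcripts, so most cells have no variable gene UMI.

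The members were also set against innate-like T cells, the 117 Advanced cells that met the same gates except for at least 3 UMIs of Trdc and Cxcr6. Of these 117 cells 48 had at least 4 rule gene UMIs. Here 16 of 7288 genes were past 2-fold higher in members and 119 lower. Of 11 measured invariant NKT and innate genes, 8 were lower in members and none higher. Memory and granule genes did not separate these populations, with 0 higher and 1 lower of 19 and 0 of 14. Klra7 stood at 152 CPM in members and 112 CPM in innate-like cells (ratio 1.35, 1.14 to 1.61), Klrk1 at 168 and 147 CPM (1.14, 0.981 to 1.34), and S100a4 at 228 and 1126 CPM (0.202, 0.186 to 0.220). Ccl5, Trdc and Cxcr6 chose these groups and are not compared.

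The Early library held 16 members, so only large differences were measurable. Against its 23 CD8 comparator cells 62 of 7531 genes (0.823%) were past 2-fold higher and 13 (0.173%) lower. Eomes had 42 UMIs in 7 members and none in comparator cells (at least 15.9-fold higher), with 52.4% of them in 1 cell. Klra7 had 21 UMIs in 5 members and none in comparator cells (at least 7.94-fold higher), S100a6 was 10.1-fold higher (5.05 to 22.8) and Ctla2a 7.42-fold higher (3.91 to 15.5). Il2rb stood at 201 and 55.9 CPM (ratio 3.60, 2.06 to 6.63). Cd44 and Cxcr3 had ratios of 4.37 (1.86 to 11.9) and 3.40 (1.29 to 10.5), and Ly6c2 stood at 511 and 263 CPM (1.94, 1.46 to 2.59), none of these past 2-fold. Igfbp4 had no UMI in members and 50 in comparator cells. Of 26 NK receptor genes 4 were higher, all 4 below 10 CPM in the comparator, and of 20 memory genes 3 were higher and 1 lower.

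Advanced members were last set against Early members. Of 7612 genes 20 (0.263%) were past 2-fold higher in Advanced members and 135 (1.77%) lower, with a median log2 ratio over all genes of -0.26. With scaling by trimmed means (TMM), which moved that median to 0.07, the counts were 44 and 76. None of 19 measured memory genes and none of 17 naive genes was past 2-fold in either direction, and of 13 NK receptor genes only Klra1 was (88.8 CPM in Advanced and 14.9 CPM in Early members, a ratio of 5.95, 2.30 to 22.0). Klrk1 stood at 168 CPM in Advanced members and 55.9 CPM in Early members (3.01, 1.81 to 5.42), Ly6c2 at 1006 and 511 CPM (1.97, 1.66 to 2.35) and Eomes at 78.9 and 157 CPM (0.504, 0.364 to 0.714). The Eomes and Klrk1 values rested on few Early cells. For Eomes, 33 of the 42 Early UMIs were in 2 of 4 cells with Xcl1 but few Ccl5 UMIs, described next. The Eomes ratio was 1.35 (0.702 to 2.99) in members with at least 4 Ccl5 UMIs and 0.944 (0.599 to 1.57) without the top cell. For Klrk1, 12 of the 15 Early UMIs were in 1 cell, and its ratio was 13.97 (4.76 to 67.9) without the top cell. In members with at least 4 Ccl5 UMIs Ly6c2 had 1.28 (1.08 to 1.55), and Klra1, whose 4 Early UMIs were in 1 cell, had 3.68 (1.42 to 13.6), no longer past 2-fold. The 20 higher genes included the myeloid genes Lyz2 (332 CPM in Advanced and 3.73 CPM in Early members, 89.1, 16.0 to 3521), Tyrobp and Cybb. Without the 11 cells named above, which were chosen by Lyz2 and Tyrobp, 6 genes were past 2-fold higher, 5 of them among the 20.

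The lower genes rested on few Early cells. Of the 135, 79 had over 50% of their Early UMIs in 1 cell, and for 73 of these that cell was 1 of 4 Early members with fewer than 4 Ccl5 UMIs and 14 to 52 Xcl1 UMIs. A single one of the 4, the cell with 52 Xcl1 UMIs, was that cell for 41 genes, and the next cell for 20. It held 52654 UMIs, against a median of 12982.5 in Early members. The 4 cells together held 39 UMIs of Tnfrsf9 (4-1BB), 20 of Il2ra (CD25), 17 of Lag3 and 16 of Irf4, genes known to be induced by T cell activation, while the other 12 Early members held none. Tnfrsf9 was found in all 4 cells, Il2ra and Irf4 in 3 and Lag3 in 2. The 4 cells had no UMI of Klra7, Klrk1 or Cxcr3. Ly6c2 stood at 89.5 CPM in the 4, all from 1 cell, and 811 CPM in the 12. Early membership thus joined 12 cells with Ccl5 and 4 cells with Xcl1 that differed in these genes. In the Advanced library 8 of 227 members had fewer than 4 Ccl5 UMIs. With members of at least 4 Ccl5 UMIs only, a limit chosen after the values were seen, 12 genes were higher and 36 lower, the median log2 ratio was -0.07, and members were 2.68% of Advanced and 0.146% of Early cells (ratio 18.3, 10.3 to 36.03).

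**Figure D5:**
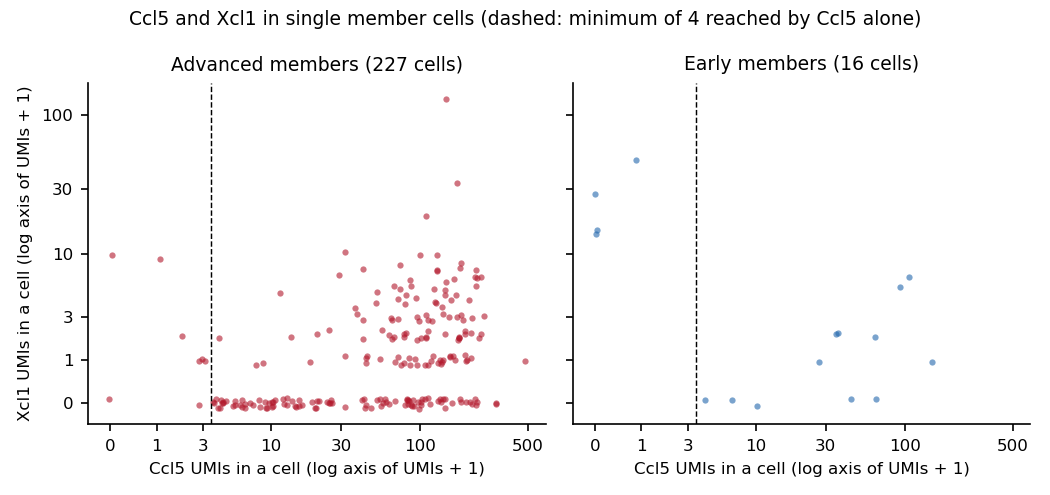
Xcl1 UMIs (vertical axis) against Ccl5 UMIs (horizontal axis) in each member, both on log axes of UMIs plus 1, with Advanced members left and Early members right. The dashed line marks the minimum of 4 reached by Ccl5 alone. Left of it lie 8 of 227 Advanced and 4 of 16 Early members, and those 4 have 14 to 52 Xcl1 UMIs.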

How the data were processed

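The authors deposited raw counts, whole-number UMIs per gene and cell barcode from 10x Genomics 3′ libraries, without normalisation or removal of free RNA. Cell Ranger 6.0.1 is written in the file headers. In the submitters' processing notes stand the versions 3.1 and 3.1.0 of that program, with Seurat 4.0.3 and the mm10 build, and the difference was not resolved. The Advanced library held 8201 barcodes and 83148059 UMIs and the Early library 8242 and 67610110, and 18 and 21 barcodes with fewer than 200 genes were left out. The libraries shared 20 barcodes and no cell was a member in both. Median depth was 7837 UMIs per Advanced cell and 6643 per Early cell. No doublets were removed. Scrublet (scanpy 1.11.5) called 4 and 5 cells, so its threshold did not work, and the 536 and 541 highest scores were left out as an alternative.

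Counts were summed over cells in Python 3.11.15 and scaled to CPM. Poisson, Clopper-Pearson and conditional ratio 95% intervals were exact (scipy 1.17.1) and cover counting error only. Groups without a UMI took a floor of 3 counts over the group. TMM factors came from edgeR 4.0.16 in R 4.3.3, used for scaling only. B cells in the background check were cells with at least 10 UMIs of Cd79a, Cd79b and Ms4a1 together and no UMI of Cd3d, Cd3e or Cd3g. The genes named in each comparison were drawn from the 12 higher and 12 lower past 2-fold whose interval end nearest to 1 lay farthest from it, a fixed set of memory, granule and NK genes, and members of each gene list. Klrg1, Tigit and Pdcd1 and genes outside these were named after their values were seen. The members and lists were chosen with earlier results of these data known. Gene positions are GENCODE M21 (GRCm38, the assembly of mm10). The gene table scripts were tested on simulated data. Results for 2 genes that the naming rule takes in are not reported here.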

Additional observations from a re-analysis of the deposited data

Results flagged for a closer look

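The rule genes were also found in cells outside the population. Of the 444 Advanced cells and 65 Early cells with at least 4 UMIs of the 5 rule genes, 90 Advanced and 37 Early cells had no CD3 UMI. Of these, 74 Advanced and 33 Early cells had at least 3 Tyrobp UMIs, and 18 and 5 had a UMI of the NK receptor Ncr1. A further 48 Advanced cells were set aside for Trdc and Cxcr6 (3 Early cells), 39 Advanced cells with at least 3 CD3 UMIs for their share of B cell genes (2 Early cells), and 17 Advanced and 4 Early cells for a Foxp3 UMI. Groups set aside can overlap. The 48 Advanced cells were part of the innate-like comparator.

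Nrgn, which encodes neurogranin, differed between the libraries in direction. Its ratio of members over CD8 comparator cells was 0.191 (0.109 to 0.318) in the Advanced library and at least 10.6 in the Early library, and the difference between the ratios was not tested. Of the Advanced comparator's Nrgn UMIs 97.1% were in 1 cell, and the Early members' 28 UMIs were in 2 cells.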

How the results depend on the processing

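No paired analysis was possible because each stage is 1 pooled library without replicates. With each cell thinned to 3000 UMIs, members were 2.34% of Advanced and 0.0996% of Early cells, 82 genes were higher than in the CD8 comparator, 0 and 59 were higher and lower in Advanced than Early members, and the ratios of members over comparator cells were 0.595 for Lyz2, 2.78 for Nrgn and 0.757 for Tyrobp, while Fcer1g had 0.721 between stages. Without the CD3 minimum the shares were 3.87% and 0.620% (ratio 6.24), and without the B cell gene limit the Advanced share was 3.21%. Between stages, 33 genes were higher when immunoglobulin, mitochondrial and ribosomal protein genes were left out of the totals, 44 higher and 76 lower with TMM factors, 34 higher with each cell weighted equally, 34 higher and 18 lower without the top cell of each gene, and 12 higher and 36 lower with at least 4 Ccl5 UMIs. Nrgn had 1.01 with each cell weighted equally and 1.80 without its top cell. Without a minimum CPM, 355 genes were higher and 43 lower than in the comparator. With at least 50 CPM these counts were 59 and 8, and 13 and 66 between stages. Without the cells with Tyrobp or Lyz2 UMIs, 110 genes were higher than in the comparator, 6 were higher between stages, and Lyz2, which helped choose those cells, had 0.758. The cause of these changes was not tested, apart from the fewer or more genes and cells that each setting admits by construction. Of the ratios of named genes over all settings, 1069 stayed within the counting interval of the reported ratio, 127 moved outside it, and 7 that had been past 2-fold crossed 1, which are those of Lyz2, Nrgn, Tyrobp and Fcer1g given here. Ratios that were not past 2-fold could cross 1 as well, as Eomes did between stages (1.35 with at least 4 Ccl5 UMIs). The settings with at least 4 Ccl5 UMIs and without Tyrobp or Lyz2 cells were chosen after seeing the data. Depth limits the Early library most, since its 16 members hold 268280 UMIs, against 3650102 UMIs in the 227 Advanced members, and a gene with fewer than 3 UMIs there lies below the floor.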
